A study of Mus musculus with 26 samples.

Results

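The tumour-bearing colon at day 70 of the AOM–DSS course was compared with the untreated colon in mice fed the standard diet. AOM (azoxymethane) is a carcinogen that was injected at 10 mg per kg, and DSS (dextran sodium sulfate) is a polymer that damages the colonic epithelium and was drunk with the water for 7 days in each of 3 cycles. The members are the 3 samples titled as standard diet with AOM–DSS at day 70 and the 4 titled as standard diet without AOM–DSS, 7 of the 26 samples of the series. The other 19 samples came from days 22 and 43 of AOM–DSS and from mice on GW3965, an agonist of the nuclear receptor LXR. All 7 samples came from colon of wild-type C57BL/6J males of about 10 weeks at the start, from the vendor Taconic, on the standard diet, which holds no GW3965. The untreated mice received neither AOM nor DSS. Untreated replicates 1 and 2 were taken after 22 days on the diet, and untreated replicates 3 and 4 after 43 days. No untreated sample of day 70 is among those analysed here, the untreated samples share cage E, and the day 70 samples came from cages G, H and I, so AOM–DSS, age at collection and cage cannot be told apart. Per the study's methods, the tissue for RNA at day 70 was biopsied from distal colon where tumours lay. The p-values rest on the spread between samples within groups, estimated in 1 fit of all 26 samples and not from these 7 alone.

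RNA selected by its polyA tail was sequenced in 150-base pairs. The 7 libraries held between 18844969 and 21323691 estimated counts, and their RNA integrity numbers were between 9.5 and 10. Levels are given as counts per 1000000 counts of the library (CPM) scaled by edgeR's TMM factors, which allow a gene to be compared between samples but not with other genes. General epithelial markers did not separate the groups: *Epcam* was between 1592 and 2235 CPM at day 70 and between 1079 and 1697 CPM in untreated colon. The small intestinal enterocyte genes *Lct*, *Sis*, *Alpi* and *Apoa4* stayed at or below 2.31 CPM in all 7 samples. Untreated replicate 2 had the highest levels of smooth muscle genes and of mitochondrial mRNA (11.3% of its counts, against 5.32 to 7.39% in the other untreated samples), and untreated replicate 3 the highest levels of B cell and plasma cell genes, so the main results that rest on these genes are also given without those samples.

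The colonic epithelium is renewed from LGR5-positive stem cells at the crypt base, which depend on Wnt signalling. Their progeny divide and mature into absorptive colonocytes, mucus-secreting goblet cells, hormone-secreting enteroendocrine cells and chemosensory tuft cells, above a layer of smooth muscle that holds the enteric nervous system. AOM–DSS tumours are known for activating mutations of the Wnt pathway in an inflamed epithelium.

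Of 17063 genes tested with edgeR's quasi-likelihood test, 5174 (30.3%) passed an adjusted p (Benjamini–Hochberg) of 0.05, 2843 higher (16.7%) and 2331 lower (13.7%) at day 70. At least 2-fold changes were called for 1642 genes higher (9.62%) and 1814 lower (10.6%). Changes of at least 16-fold were more often upward, with 428 genes higher and 115 lower. However, 116 of the genes called higher were at 0 in every untreated library, so the size of their fold change is not set by the data. How many of the 428 they make up was not counted. The median log2 fold change over all genes tested was 0.04. All 3 day 70 samples lay above all 4 untreated samples for 23.9% of the genes, and below them for 19.3%, together 43.1%. With upper quartile normalization the median moved to -0.06 and the share of higher genes among those called went from 55.0% to 45.9%, so modest changes are to be read against a shift of about 0.11 on the log2 scale. When only the 43-day untreated samples were used as controls, 2083 genes were called (993 higher and 1090 lower).

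**Figure D1:**
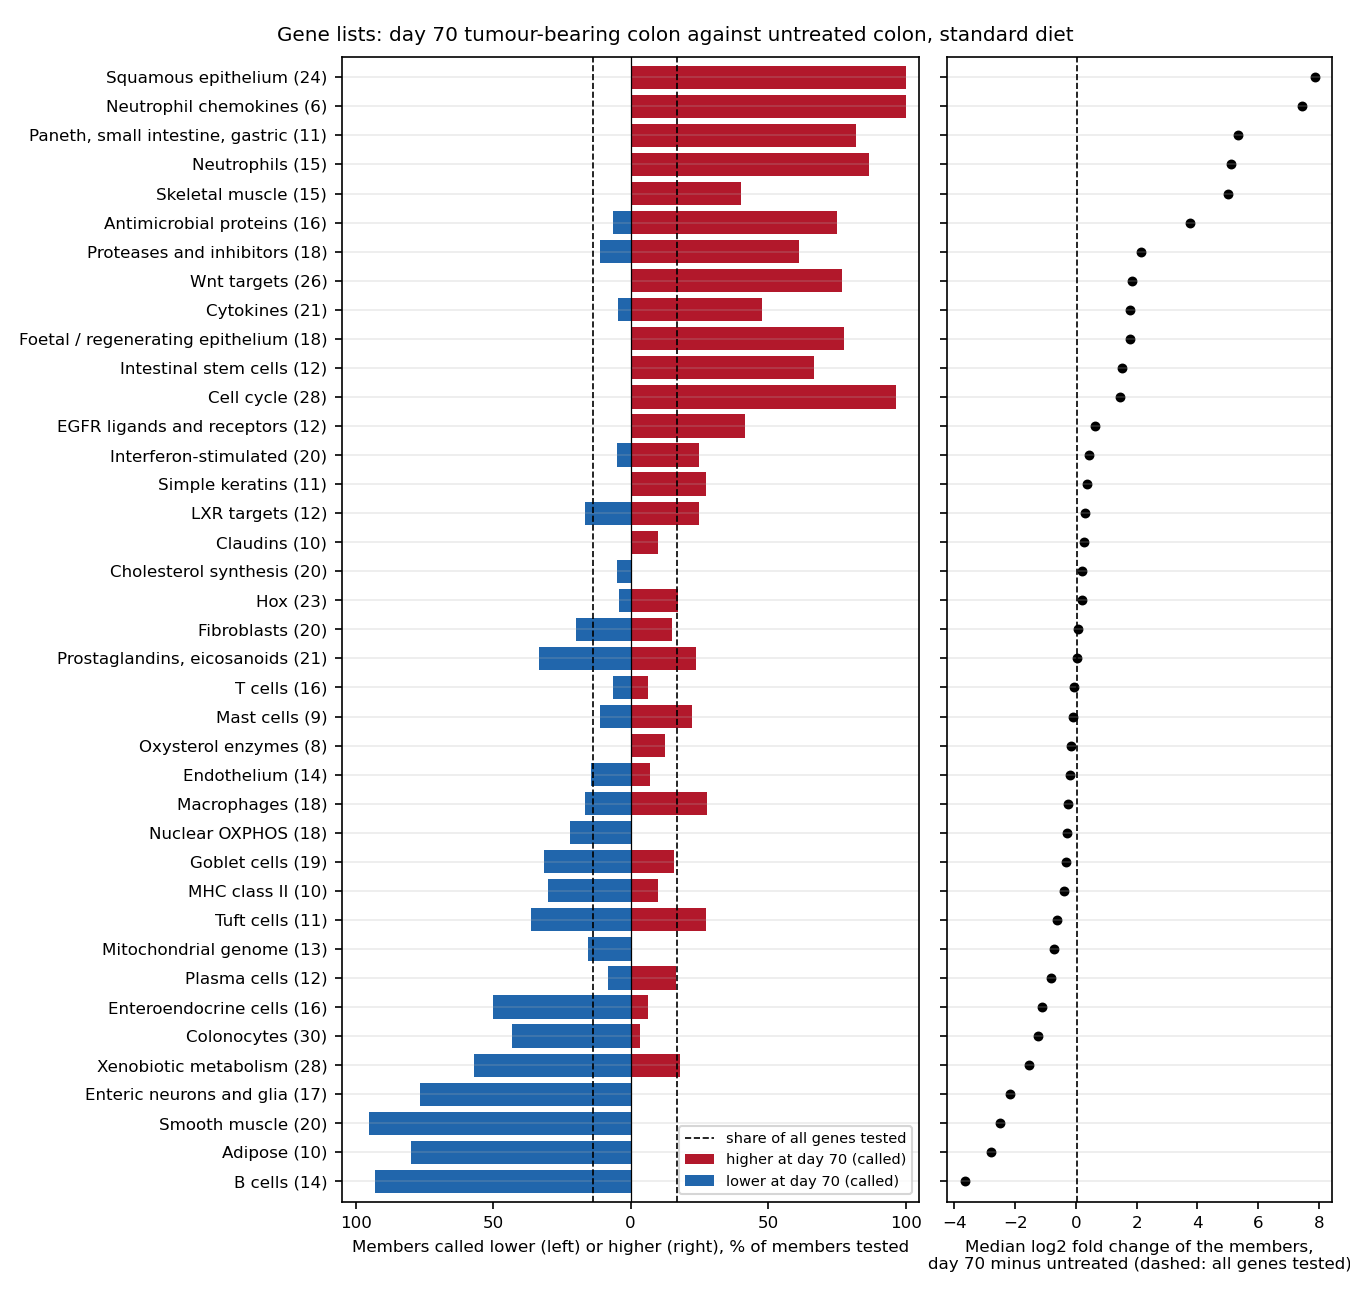
Members of 39 gene lists called lower (blue, to the left) or higher (red, to the right) at day 70, as a percentage of the members tested (number in brackets), with the share of all genes tested as dashed lines at 13.7% lower and 16.7% higher, and, on the right, each list's median log2 fold change beside that of all genes. Squamous epithelium and neutrophil chemokines lie at the top with every tested member called higher, and B cells, adipose tissue and smooth muscle at the bottom.

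Wnt target genes and Wnt inhibitors were higher in the tumour-bearing colon. Of 26 members tested of the list, 20 rose and 0 fell, against 16.7% and 13.7% of all genes, and the median log2 fold change was 1.84. *Notum*, which encodes a secreted enzyme that inactivates Wnt ligands, was at 16.7, 115 and 106 CPM in the 3 day 70 samples and at 0, 0.142, 0.170 and 0.0495 CPM in the 4 untreated ones. The groups did not overlap, and day 70 replicate 1 was the lowest of its group (log2 fold change 9.66 ± 1.39 SE, adjusted p = 8.26e-05). *Wif1*, another secreted Wnt inhibitor, was also lowest in day 70 replicate 1 of its group, with 47.5, 219 and 233 CPM against 1.18, 0.708, 2.30 and 1.58 CPM (6.84 ± 1.09, adjusted p = 0.000180). *Axin2*, a negative feedback regulator that most cells switch on in response to Wnt, was at 103, 173 and 176 CPM against 37.8, 24.1, 33.6 and 44.1 CPM. Its rise was smaller than that of *Notum* and *Wif1*, with no overlap of the groups (2.11 ± 0.53, adjusted p = 0.00504). The nuclear factors *Tcf7* (1.85 ± 0.35) and *Lef1* (1.84 ± 0.51), the ubiquitin ligase *Rnf43* (1.58 ± 0.40), the adhesion receptor *Cd44* (2.33 ± 0.32), *Myc* (1.55 ± 0.36) and the cyclin *Ccnd1* (1.36 ± 0.26) rose as well. *Nkd1*, an intracellular Wnt inhibitor, rose by 2.00 ± 0.47 although day 70 replicate 1 (42.8 CPM) lay below untreated replicate 2 (55.9 CPM). With the 43-day controls alone, 13 of the 26 were called, and the adjusted p of *Axin2* was 0.0756 and that of *Lef1* 0.0656.

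*Mmp7*, a protease of Paneth cells and intestinal adenomas, and *Sp5*, a transcription factor, are targets of Wnt signalling. *Mmp7* was at 115.5, 625 and 656 CPM at day 70 and at 0, 0.189, 0.468 and 0.0991 CPM in untreated colon (11.18 ± 1.34, adjusted p = 2.21e-05, and 12.15 without untreated replicate 3). *Sp5* was at 12.4, 31.5 and 25.7 CPM against 0.0942, 0.0472, 0.0851 and 0 CPM (8.51 ± 1.17, adjusted p = 5.98e-05). Day 70 replicate 1 was the lowest of its group for both, and neither gene's groups overlapped. The motif CTTTGAT, which TCF and LEF factors bind, was searched on both strands in the 250 bases before the RefSeq start sites of GRCm38.p6. It stood in 3 of the 17 Wnt list promoters given there (17.6%; *Mmp7*, *Sp5* and *Tnfrsf19*) and in 3.72% of the promoters of all 27025 genes there. Of the stem cell list described below, 0 of the 8 promoters given there held the motif. For *Mmp7* the match lies before 1 of its RefSeq starts but inside the gene as GENCODE annotates it. The stretch of *Sp5* is shown as that of a member that rose with the motif before its annotated start, and the capitals mark it:
Sp5 (chr2:70474794-70474850, + strand): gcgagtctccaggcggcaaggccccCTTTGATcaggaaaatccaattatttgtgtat
The match ends 97 bases before the RefSeq start of *Sp5*. *Axin2*, *Notum* and *Lgr5* are described without a sequence.

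Stem cell genes rose with the Wnt targets, 8 of 12 higher and 0 lower, against 16.7% and 13.7% of all genes. Their median was 1.52, and *Axin2* and *Ascl2* stand in both lists. *Lgr5*, the receptor that marks crypt base stem cells, was at 38.0, 69.4 and 67.0 CPM at day 70 and at 6.08, 5.85, 4.81 and 6.14 CPM in untreated colon. The 4 untreated samples were close to each other, and the nearest day 70 sample was 6.18-fold above the highest of them (3.35 ± 0.72, adjusted p = 0.00180). *Ascl2*, the transcription factor of that stem cell, was at 21.3, 27.3 and 34.5 CPM against 9.51, 4.44, 8.51 and 9.11 CPM (1.81 ± 0.52, adjusted p = 0.0113). *Smoc2*, a secreted matrix protein of the same cell, was at 99.3, 221 and 210 CPM against 54.3, 46.6, 53.3 and 53.3 CPM (1.77 ± 0.35, adjusted p = 0.000894). *Olfm4*, which marks stem cells of the small intestine and is near absent from mouse colon, rose from at most 0.0495 CPM to between 0.634 and 3.68 CPM, a level that stayed low (5.99 ± 1.09, and 5.02 without day 70 replicate 1). With the 43-day controls 4 of the 12 were called, and *Ascl2* was not (adjusted p = 0.112).

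Cell cycle genes were higher at day 70 as a group, 27 of 28 called and 0 lower, against 16.7% and 13.7% of all genes. Their median was 1.45. *Top2a*, which untangles replicated DNA, was at 222, 145 and 171 CPM against 43.1, 20.4, 56.3 and 79.4 CPM (1.85 ± 0.33, adjusted p = 0.000426). *Rrm2*, a subunit of the enzyme that makes deoxyribonucleotides, was at 76.9, 65.7 and 69.8 CPM against 9.09, 4.06, 19.6 and 23.3 CPM (2.34 ± 0.47, adjusted p = 0.00102). *Mcm2*, part of the replicative helicase, rose by 1.66 ± 0.34. Untreated replicates 3 and 4 had the higher control values of all of these genes, and with those 43-day controls alone 8 of the 28 were called. *Mki67*, the usual proliferation marker, had overlapping groups, with 166, 82.8 and 93.8 CPM against 69.5, 53.1, 74.2 and 90.1 CPM (0.67 ± 0.23, adjusted p = 0.0299). Its call was lost without untreated replicate 1, 2 or 3 or without day 70 replicate 1, and its adjusted p with the 43-day controls was 0.300.

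Products of Paneth cells, which sit beside the stem cells of the small intestine and are not a regular cell of the mouse colon, were raised. In the list of Paneth, small intestinal and gastric genes, 9 of the 11 members tested rose and 0 fell. Among all genes 16.7% rose and 13.7% fell, and the median of the list was 5.33. The other 7 members listed were too low to test, among them the gastric genes *Gkn1*, *Gkn2*, *Tff2* and *Muc5ac*. *Lyz1*, the lysozyme of Paneth cells, was at 456, 2863 and 2442 CPM at day 70 and at 17.3, 17.7, 42.0 and 18.4 CPM in untreated colon. The lowest day 70 sample, replicate 1, was still 10.9-fold above the highest untreated sample (6.33 ± 0.93, adjusted p = 9.38e-05). *Itln1*, a lectin of Paneth and goblet cells, was at 21.3, 100 and 163 CPM against 0.754, 1.09, 0.979 and 0.693 CPM (6.74 ± 0.98, and 6.09 without day 70 replicate 3). The α-defensins are antimicrobial peptides of Paneth cells whose many gene copies are near identical, so that counts of single copies are uncertain. Summed over 39 *Defa* genes they reached 76.9, 1890 and 1627 CPM at day 70 and 0, 0.283, 0 and 0 CPM in untreated colon, and 17 of the 18 copies tested were called higher. *Pla2g2a*, a secreted phospholipase of Paneth cells, was at 115, 259 and 222 CPM against 0.942, 0.331, 2.38 and 3.57 CPM (6.78 ± 0.79, adjusted p = 2.06e-05). Genes of the stomach at the edge of detection were also called, such as *Tff1* at 0.263, 0.218 and 0.465 CPM (adjusted p = 0.0115). With the 43-day controls 5 of the 11 were called, and *Tff1* had an adjusted p of 0.0883.

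Genes of the foetal and regenerating epithelium, which the gut re-expresses after injury, rose in 14 of 18 cases with 0 lower. Among all genes 16.7% rose and 13.7% fell, and the median of the list was 1.78. *Plet1*, a surface protein of progenitor cells, was at 81.9, 79.6 and 111 CPM against 1.27, 0.614, 1.96 and 1.09 CPM (6.19 ± 0.61, adjusted p = 6.03e-06). *Anxa1*, an anti-inflammatory phospholipid-binding protein, rose from between 241 and 351 CPM to between 1271 and 1835 CPM (2.45 ± 0.49, adjusted p = 0.00108). *Ly6a*, which encodes SCA-1, rose by 1.31 ± 0.35, a call lost without day 70 replicate 1 and with the 43-day controls (adjusted p = 0.135). *Anxa1* and *Krt7* (2.22 ± 0.48) are also made by stratified epithelia, and the summed level of 24 squamous genes was at 5500.4, 8017 and 7014 CPM at day 70 and between 334 and 573 CPM in untreated colon. All 24 of those genes were called higher, none was at 0 at day 70, and their part in these values was not tested.

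**Figure D2:**
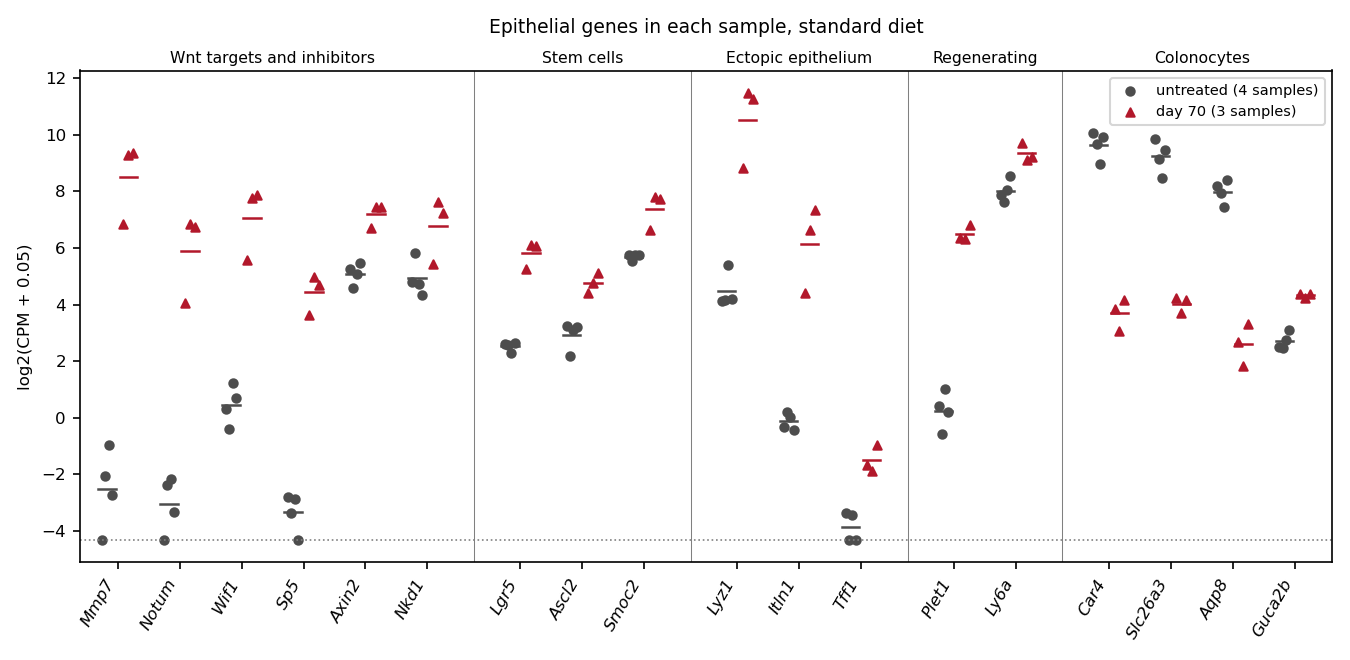
Levels of 18 epithelial genes in each sample as log2(CPM + 0.05), with 4 untreated samples as grey circles, 3 day 70 samples as red triangles and a bar at each group's mean of log values. The dotted line marks 0 CPM. Wnt, stem cell and Paneth genes lie higher at day 70, *Car4*, *Slc26a3* and *Aqp8* lie lower without overlap, and *Guca2b* lies higher.

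Genes of mature colonocytes were lower. Of 30 listed, 13 fell and 1 rose, against 13.7% and 16.7% of all genes, with a median of -1.25. *Car4*, a carbonic anhydrase of the surface epithelium, was at 14.2, 8.40 and 17.7 CPM at day 70 and at 1077, 814, 497 and 964 CPM in untreated colon. The lowest untreated sample was 28.1-fold above the highest day 70 sample (-5.96 ± 0.84, adjusted p = 6.72e-05). *Slc26a3*, the chloride-bicarbonate exchanger, was at 18.6, 12.8 and 17.8 CPM against 934, 568, 359 and 714 CPM (-5.30 ± 0.81, adjusted p = 0.000126). *Aqp8*, a water channel, was at 6.41, 3.48 and 9.77 CPM against 295, 243, 175 and 335 CPM (-5.32 ± 0.94, adjusted p = 0.000393). *Car2* (-2.91 ± 0.35), the mineralocorticoid-protecting enzyme *Hsd11b2* (-1.76 ± 0.38), the sodium channel subunit *Scnn1g* (-2.77 ± 0.64) and the proton pump *Atp12a* (-2.91 ± 0.65) fell too. *Guca2b*, the peptide uroguanylin, was the member that rose, from between 5.48 and 8.62 CPM to between 18.7 and 20.8 CPM (1.61 ± 0.31, adjusted p = 0.000780). Of 11 simple epithelial genes 3 rose, the keratins *Krt18* (1.49 ± 0.36), *Krt7* (2.22 ± 0.48) and *Krt23* (4.22 ± 0.56), and 0 fell, while the keratins *Krt8*, *Krt19* and *Krt20* had overlapping groups and log2 fold changes of 0.12, 0.38 and 0.18. With the 43-day controls 11 members were lower and 1 was higher.

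Goblet cell genes moved in both directions, 6 of 19 lower and 3 higher, against 13.7% and 16.7% of all genes, with a median of -0.32. *Clca1*, a secreted mucus protein, was at 124, 92.5 and 254 CPM against 1348, 731, 675 and 1249 CPM (-2.67 ± 0.65, adjusted p = 0.00413). *Zg16*, a lectin of the mucus layer, fell by 2.66 on the log2 scale (SE 0.73, adjusted p = 0.00881). *Muc2*, the gel-forming mucin itself, was at 309, 146 and 201 CPM against 89.2, 81.2, 78.5 and 108 CPM, so all 3 day 70 samples were higher (1.29 ± 0.38, adjusted p = 0.0137). That call was lost without day 70 replicate 1, with the 22-day controls and with the 43-day controls (adjusted p = 0.122 with the latter). *Spink4*, a protease inhibitor of goblet cells, rose to 573, 887 and 1012 CPM from between 203 and 276 CPM (1.73 ± 0.40, adjusted p = 0.00289).

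Of 16 enteroendocrine genes 8 fell (5 without day 70 replicate 2 or 3) and 1 rose, with a median of -1.12. *Insl5*, a hormone of colonic L cells, was at 9.15, 7.31 and 7.78 CPM against 49.2, 35.0, 78.6 and 89.4 CPM (-2.96 ± 0.64, adjusted p = 0.00176). *Tph1*, which makes the serotonin of enterochromaffin cells, fell by 2.14 (SE 0.50, adjusted p = 0.00292), and *Sst*, somatostatin, by 2.09 (SE 0.43, adjusted p = 0.00134). *Nts*, neurotensin, was the member that rose, by 2.87, and by 2.27 without day 70 replicate 2. *Chga*, the general marker of these cells, fell by 1.07 (adjusted p = 0.0439), a call lost when any sample but day 70 replicate 1 was left out. The tuft cell list gave 4 lower (2 without day 70 replicate 1) and 3 higher of 11 tested, with a median of -0.63. Of all genes 13.7% were lower and 16.7% higher. *Dclk1*, the kinase used as the tuft marker in mice, was at 4.42, 4.14 and 3.47 CPM against 9.37, 12.4, 10.9 and 10.9 CPM (-1.44 ± 0.31, adjusted p = 0.00168). *Avil*, an actin-binding protein of tuft cells, went the other way, with 30.1, 32.2 and 28.3 CPM against 1.37, 1.65, 2.17 and 2.03 CPM (4.06 ± 0.56, adjusted p = 6.30e-05). *Trpm5* and *Pou2f3*, the channel and the transcription factor that define the cell, had overlapping groups, so the list did not move as a unit. In whole tissue, fewer cells of a type and less RNA per cell cannot be told apart.

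Neutrophil genes and the chemokines that attract neutrophils were higher. Of 15 neutrophil genes tested 13 rose and 0 fell, against 16.7% and 13.7% of all genes, with a median of 5.12. All 6 chemokines tested rose (3 by limma-voom), with a median of 7.44. *S100a8*, a subunit of calprotectin, was at 58.1, 247 and 103 CPM at day 70 and at 0.518, 0.236, 0.766 and 1.73 CPM in untreated colon. Day 70 replicate 2 was the highest sample and the groups did not overlap (7.38 ± 1.07, adjusted p = 8.99e-05). Without day 70 replicate 2 its log2 fold change was 6.61, and without untreated replicate 4 it was 8.03. *Cxcr2*, the receptor for these chemokines, was at 10.7, 13.8 and 7.95 CPM against 0.188, 0.236, 0.425 and 0.693 CPM (4.79 ± 0.88, adjusted p = 0.000549). *Cxcl5* was at 107, 168 and 235 CPM against 2.73, 2.31, 2.68 and 2.03 CPM (6.12 ± 0.85, adjusted p = 6.33e-05). *Ppbp*, another ligand of CXCR2, was at 220, 35.6 and 278 CPM, with day 70 replicate 2 the lowest, against at most 0.425 CPM (9.06 ± 1.64, adjusted p = 0.000468).

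*Cxcl1*, *Cxcl2* and *Cxcl3* are neighbours on chromosome 5 and rose together. *Cxcl1* was at 4.89, 30.2 and 22.0 CPM against 0.283, 0.378, 0.723 and 0.248 CPM (5.51 ± 0.90), *Cxcl2* at 3.995, 37.4 and 26.3 CPM against 0.0471, 0, 0.170 and 0.198 CPM (7.68 ± 1.43, and 7.09 without day 70 replicate 2), and *Cxcl3* at 4.36, 12.9 and 15.98 CPM against 0, 0.0944, 0.0426 and 0.149 CPM (7.20 ± 1.46). Day 70 replicate 1 was the lowest of its group for all of them and lay above the highest untreated sample, by 6.76-fold for *Cxcl1*. Their promoters are shown because all hold a κB motif bound by NF-κB (GGGA, then any 2 bases, then TTCC, searched on both strands), in a symmetric form that matches on both strands with a shift of 1 base. The motif is in capitals:
Cxcl1 (chr5:90891149-90891209, + strand): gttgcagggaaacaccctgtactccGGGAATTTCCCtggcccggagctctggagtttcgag
Cxcl2 (chr5:90903777-90903837, + strand): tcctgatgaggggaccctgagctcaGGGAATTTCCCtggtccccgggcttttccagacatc
Cxcl3 (chr5:90786003-90786063, + strand): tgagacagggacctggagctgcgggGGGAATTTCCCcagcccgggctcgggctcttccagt
The runs in capitals end 60, 86 and 62 bases before the start sites of *Cxcl1*, *Cxcl2* and *Cxcl3* (RefSeq, GRCm38.p6). The motif was in 3 of the 5 chemokine promoters given there (60%), in 2 of 18 cytokine promoters (11.1%), in 1 of 14 neutrophil promoters (7.14%) and in 1.36% of all promoters.

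Of 21 cytokine genes tested, 10 rose and 1 fell, against 16.7% and 13.7% of all genes, with a median of 1.78. *Il11*, a cytokine of the IL-6 family made by stromal cells, was at 17.7, 34.0 and 15.9 CPM against 0.0471, 0.0944, 0.383 and 0.248 CPM (6.81 ± 0.95, adjusted p = 6.30e-05). *Il1b* was at 20.0, 95.4 and 52.6 CPM against 0.848, 1.23, 3.28 and 3.86 CPM (4.60 ± 0.93, and 3.96 without day 70 replicate 2). *Il6* was at 0.999, 9.01 and 3.47 CPM, while it was detected in untreated replicate 3 alone, at 0.213 CPM (6.17 ± 1.30), so without that sample every untreated library is at 0. *Tnf* was at 6.05, 10.1 and 12.7 CPM against 0.141, 0.283, 0.894 and 1.24 CPM (3.90 ± 0.59, adjusted p = 0.000120). *Il23a*, which sustains IL-17-producing cells, was at 1.47, 9.23 and 6.51 CPM against at most 0.248 CPM (4.89 ± 0.98, adjusted p = 0.00104). The samples of day 70 did not overlap the untreated samples for any of these cytokines. *Il12b* was the member called lower (-2.12), and its call was lost when any sample but untreated replicate 4 was left out.

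Proteases that digest matrix and their inhibitors gave 11 of 18 higher and 2 lower, against 16.7% and 13.7% of all genes. Their median was 2.14. *Mmp10*, stromelysin-2, was at 115, 139 and 104 CPM against 0.471, 0.567, 0.681 and 1.44 CPM (7.24 ± 0.86, adjusted p = 2.21e-05). *Mmp13*, a collagenase, was at 189, 148 and 164 CPM against 2.54, 4.01, 2.43 and 3.91 CPM (5.69 ± 0.85, adjusted p = 0.000107). The nearest samples of the groups were 72.3-fold apart for *Mmp10* and 36.8-fold apart for *Mmp13*. The inhibitor *Timp1* rose by 3.07 ± 0.53, while *Timp2* and *Timp4* were the 2 members called lower (-1.16 and -1.08), and both calls were lost without day 70 replicate 1, among other samples. Epithelial and leukocyte antimicrobial proteins gave 12 of 16 higher and 1 lower, against the same shares of all genes. *Reg3g*, a lectin that binds Gram-positive bacteria, was at 79.9, 264 and 343 CPM against 0.188, 0.189, 0.851 and 0.347 CPM (9.13 ± 1.11, adjusted p = 2.36e-05, and 9.85 without untreated replicate 3). *Retnlb*, a goblet cell protein, was at 52.4, 36.4 and 30.8 CPM against 0.330, 0.0944, 0.511 and 0.991 CPM (6.36 ± 0.90, adjusted p = 7.19e-05). *Saa1*, an acute-phase apolipoprotein, fell from between 657 and 1036 CPM to 57.8, 126 and 200 CPM (-2.63 ± 0.67, adjusted p = 0.00533). Its relative *Saa3* rose from at most 2.82 CPM to 80.8, 188 and 96.9 CPM (6.17 ± 0.98, adjusted p = 0.000178), so these acute-phase genes changed in opposite directions.

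**Figure D3:**
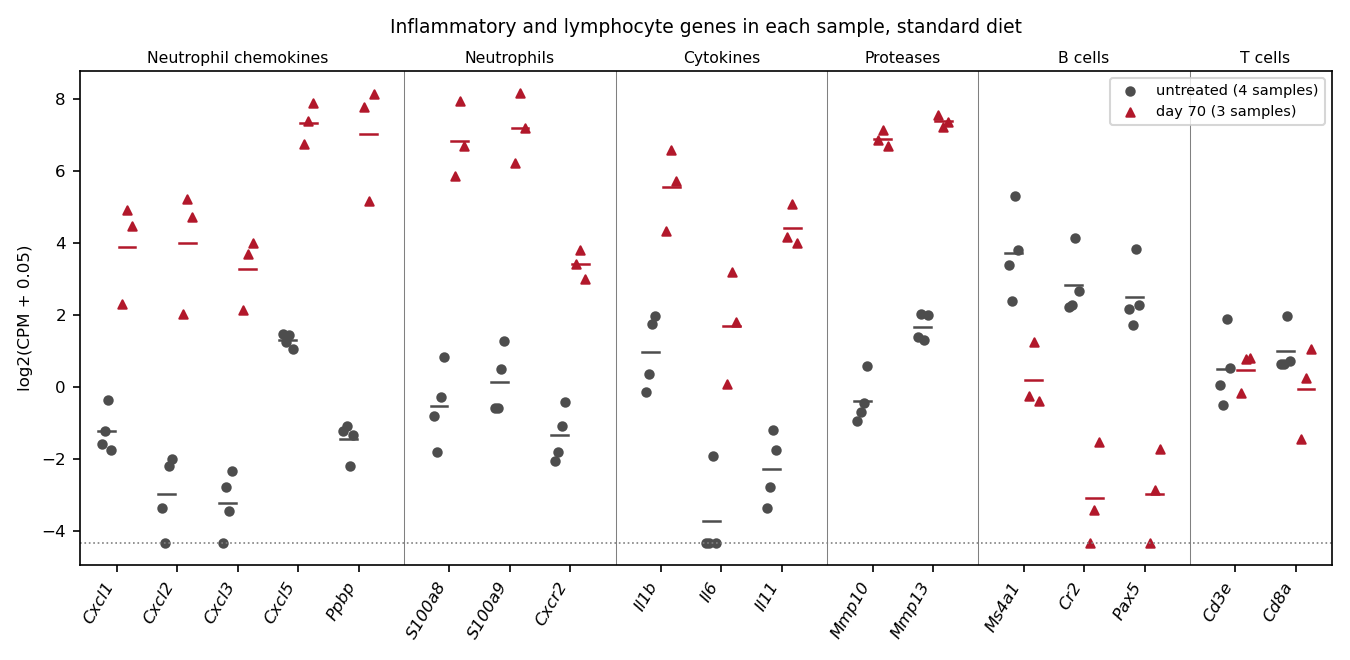
Levels of 18 inflammatory and lymphocyte genes in each sample as log2(CPM + 0.05), drawn as grey circles for 4 untreated and red triangles for 3 day 70 samples, with bars at the means of log values and a dotted line at 0 CPM. Chemokine, neutrophil, cytokine and protease genes lie higher at day 70 and B cell genes lower, while the T cell genes *Cd3e* and *Cd8a* overlap.

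B cell genes were lower at day 70. Of 14 listed, 13 fell and 0 rose, against 13.7% and 16.7% of all genes, with a median of -3.66. The summed level of the list was between 9.20 and 18.8 CPM at day 70 and at 82.3, 66.4, 322 and 102 CPM in untreated colon. *Ms4a1*, which encodes CD20, was at 0.788, 2.31 and 0.718 CPM against 10.3, 5.19, 39.4 and 13.8 CPM. The groups did not overlap, and untreated replicate 3 was the highest (-3.74 ± 0.90, adjusted p = 0.00367, and -2.94 without that sample). *Cr2*, the complement receptor of follicular B cells and follicular dendritic cells, was at 0, 0.0435 and 0.296 CPM against 4.62, 4.77, 17.4 and 6.29 CPM (-6.04 ± 1.14, and -5.39 without untreated replicate 3). *Pax5*, the transcription factor that maintains B cell identity, was at 0, 0.0871 and 0.254 CPM against 4.43, 3.21, 14.1 and 4.80 CPM (-5.73 ± 1.21, and -5.06 without that sample). *Cxcr5*, the receptor that brings B cells into follicles, fell by 5.34 (SE 1.03, adjusted p = 0.000774), and by 4.72 without that sample. The count of 13 members lower was the same without untreated replicate 3, was 14 with the 43-day controls, 9 with the 22-day controls, 11 with limma on log2(TPM + 1) and 5 with limma-voom.

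Few plasma cell genes were called, unlike the B cell genes, and their direction was not settled. *Igha*, the IgA heavy chain, was at 413, 1631 and 606 CPM against 210.2, 307, 4694 and 1479.8 CPM, with overlapping groups (-0.92 ± 0.90, adjusted p = 0.471). The plasma cell list gave 2 higher and 1 lower of 12. Its median of -0.81 turned to 0.33 without untreated replicate 3 and to 1.09 with the 22-day controls. It was -1.66 with the 43-day controls and -1.45 without day 70 replicate 2. List counts in this paragraph stand against 16.7% of all genes called higher and 13.7% called lower. T cell genes gave 1 higher (*Gzmb*, granzyme B, 2.17 ± 0.57) and 1 lower (*Cd28*) of 16, with a median of -0.05. *Cd3e*, a chain of the T cell receptor complex, was at 0.841, 1.65 and 1.69 CPM against 0.989, 0.661, 3.66 and 1.39 CPM (adjusted p = 0.749), with overlapping groups. Of 10 MHC class II genes 3 fell and 1 rose, and those that fell, *H2-Oa*, *H2-Ob* and *H2-DMb2*, are made mainly by B cells. Without untreated replicate 3 they were still called, with log2 fold changes of -3.38, -3.09 and -2.96. *Cd74*, the invariant chain, was between 338 and 865 CPM at day 70 and between 284 and 786 CPM in untreated colon (adjusted p = 0.757).

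The macrophage list gave 5 higher (3 without day 70 replicate 2) and 3 lower of 18, against 16.7% and 13.7% of all genes. *Arg1*, the arginase of wound and tumour macrophages that other cells also make, was at 225, 180 and 484 CPM against 0.283, 0.519, 0.723 and 0.594 CPM (9.11 ± 1.38, adjusted p = 0.000118). *Spp1*, osteopontin, was at 12.7, 77.4 and 26.4 CPM against at most 0.425 CPM (6.88 ± 1.01, and 5.88 without day 70 replicate 2). *Mertk*, a receptor of resident macrophages that engulf dying cells, fell from between 11.96 and 25.6 CPM to between 4.68 and 7.74 CPM (-1.66 ± 0.33, adjusted p = 0.00101). The pan-macrophage genes *Adgre1* and *Cd68* had overlapping groups (log2 fold changes -1.01 and -0.12, adjusted p = 0.0441 and 0.862), and the call of *Adgre1* was lost without untreated replicate 2 or 3 or day 70 replicate 1 or 3. Among 9 mast cell genes *Mcpt1* (4.64 ± 0.97) and *Mcpt2* (4.63 ± 1.02), proteases of mucosal mast cells, rose, and *Kit*, which pacemaker cells of the gut also carry, fell by 1.19 (SE 0.22). The interferon-stimulated list had 5 higher and 1 lower of 20 and a median of 0.42, and all of these calls were lost with the 43-day controls.

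Smooth muscle and enteric nervous system genes were lower. Of 20 smooth muscle genes 19 fell and 0 rose, against 13.7% and 16.7% of all genes, with a median of -2.50. The summed level was 3230.0, 6420.2 and 3866 CPM at day 70 and 18232, 39344, 16727 and 13719.8 CPM in untreated colon. *Myh11*, the smooth muscle myosin heavy chain, was at 243, 369 and 202 CPM against 1889, 3881, 1346 and 1071 CPM (-2.91 ± 0.64, adjusted p = 0.00207). *Acta2*, smooth muscle actin, was at 311, 568 and 324 CPM against 1675, 3156, 1697 and 1368 CPM (-2.30 ± 0.51, adjusted p = 0.00228). *Lmod1*, a nucleator of thin filaments, was at 10.9, 18.4 and 11.2 CPM against 109, 202, 91.6 and 75.2 CPM (-3.14 ± 0.47, adjusted p = 0.000111). Untreated replicate 2 was the highest and day 70 replicate 2 the highest of its group for all of these, and the groups did not overlap. Without untreated replicate 2 the median was -2.01 with 17 called, and the log2 fold changes of *Myh11*, *Acta2* and *Lmod1* were -2.40, -1.98 and -2.77. Between 15 and 19 members were called when any 1 sample was left out, and 13 with the 43-day controls. *Myl9*, a myosin light chain, fell by 2.50 (SE 0.54, adjusted p = 0.00180). Its promoter is shown as the member that fell whose promoter holds a CArG box, the site of serum response factor, in capitals:
Myl9 (chr2:156775278-156775337, + strand): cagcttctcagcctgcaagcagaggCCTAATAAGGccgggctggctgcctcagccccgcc
The match ends 151 bases before the start. A CArG box was in 2 of 16 smooth muscle promoters (12.5%) and 1.62% of all promoters, and *Ldb3*, the other holder, had overlapping groups (log2 fold change 0.03).

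Of 17 enteric genes tested 13 fell and 0 rose, against 13.7% and 16.7% of all genes, with a median of -2.18. *Sox10*, the transcription factor of glia, was at 0.263, 0.435 and 0.296 CPM against 5.23, 9.72, 4.25 and 3.27 CPM (-4.05 ± 0.71, adjusted p = 0.000389). The neuronal genes *Uchl1* (-1.74 ± 0.39), *Prph* (-3.60 ± 0.61), *Elavl4* (-2.47 ± 0.47) and *Vip* (-2.18 ± 0.44) fell too, and *Vip* fell by 2.89 without day 70 replicate 2. Fat genes were lower in 8 of 10 cases, against 13.7% of all genes. They were led by *Adipoq*, the hormone adiponectin, at 0, 0.174 and 0 CPM against 8.01, 13.3, 5.40 and 0.0495 CPM. Untreated replicate 4 lay with the day 70 samples (-6.66 ± 2.07, adjusted p = 0.0188), and 1 of 10 fat genes was called with the 43-day controls. Without day 70 replicate 1 or 3 the count was 1 as well and *Adipoq* lost its call, and without untreated replicate 2 the count was 4. Of 20 fibroblast genes 3 rose (15%) and 4 fell (20%), near the 16.7% and 13.7% of all genes, with a median of 0.07. *Col1a1*, a chain of collagen I, rose by 1.51 ± 0.46 (adjusted p = 0.0165), a call lost without day 70 replicate 1 or with the 22-day controls. *Postn*, a matrix protein of pericryptal fibroblasts, fell by 1.61 (SE 0.30, adjusted p = 0.000642). Of 14 endothelial genes 1 rose and 2 fell, against 16.7% and 13.7% of all genes.

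Genes of stratified squamous epithelium, the lining of skin, anus and forestomach rather than colon, were high at day 70. All 24 members rose, against 16.7% of all genes. Their median was 7.86, or 7.40 with the 4 members that were at 0 in every untreated library set to their lower bounds. *Krt5*, a keratin of the basal layer, was at 698, 503 and 534 CPM against 0.235, 1.37, 0.128 and 0.347 CPM (10.12 ± 1.63, adjusted p = 0.000195, and 11.24 without untreated replicate 2). *Trp63*, the transcription factor of basal cells, was at 42.0, 38.3 and 35.9 CPM against 0.0942, 0.0944, 0.0851 and 0.0991 CPM (8.61 ± 1.38, adjusted p = 0.000188). *Krt13*, a keratin of mucosal stratified epithelia, was at 680.1, 1358 and 1585 CPM against 0.471, 0, 1.19 and 0.743 CPM (10.94 ± 1.63, adjusted p = 0.000108). The 3 day 70 samples were close to each other for the basal genes, and no untreated sample came above 2.45 CPM for *Krt5*, *Krt14*, *Krt13* or *Trp63*. *Krt6a*, whose reads are shared in part with *Krt6b*, was at least 21431-fold higher than the limit that 3 counts over the 4 untreated libraries set. With the 43-day controls 16 of the 24 were called, and by limma-voom 9. Where in the sampled tissue these transcripts arose was not tested.

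Skeletal muscle genes varied among the day 70 samples. *Acta1*, skeletal actin, was at 3.47, 313 and 55.7 CPM at day 70 and at 4.33, 4.20, 3.28 and 1.98 CPM in untreated colon, so day 70 replicate 1 lay within the untreated range (5.17 ± 1.64, adjusted p = 0.0208, a call lost without day 70 replicate 2 or untreated replicate 2 or 4). The summed list was at 11.6, 1016 and 198 CPM against between 35.1 and 91.1 CPM. Of its 15 members 6 were called higher, against 16.7% of all genes. Those calls were 0 without day 70 replicate 2 and with the 22-day or the 43-day controls, 1 without untreated replicate 2 or 4, and 2 without untreated replicate 1 or 3 or by DESeq2.

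**Figure D4:**
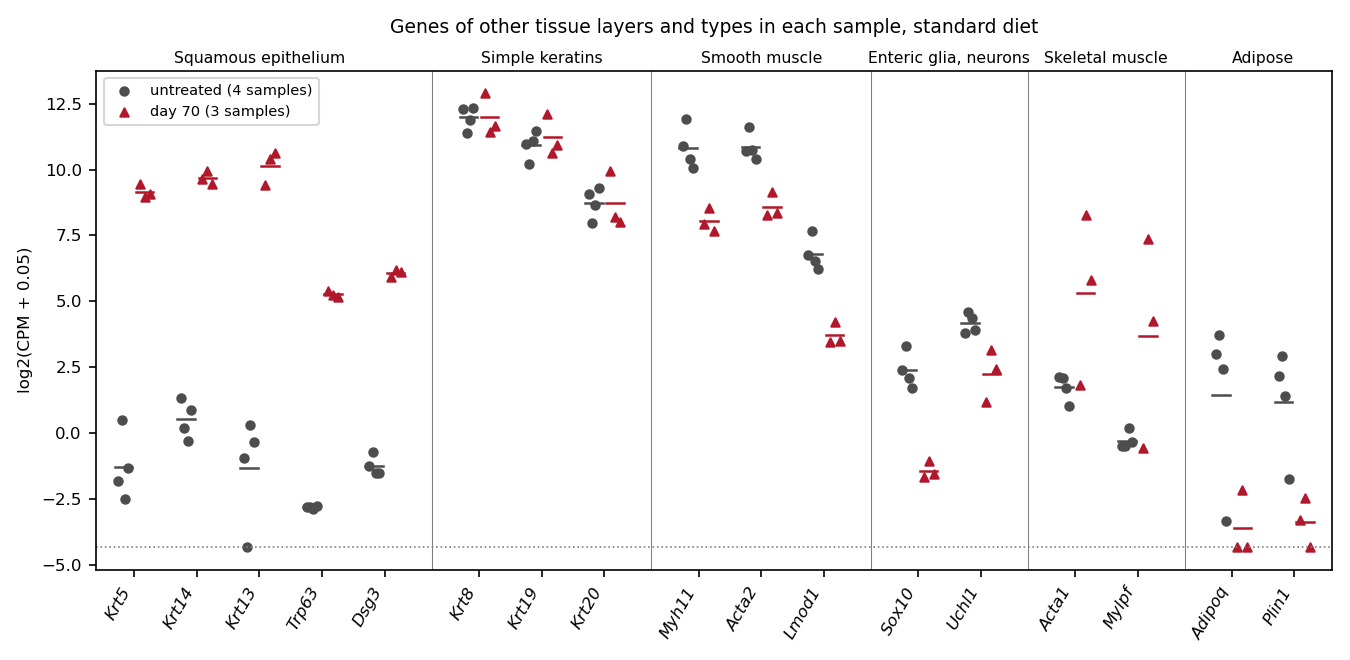
Levels of 17 genes of other tissue layers and cell types in each sample as log2(CPM + 0.05), with grey circles for 4 untreated and red triangles for 3 day 70 samples, bars at the means of log values and a dotted line at 0 CPM. Squamous genes lie above the untreated samples in all 3 day 70 samples, smooth muscle and enteric genes lie below them, and skeletal muscle genes range from 3.47 to 313 CPM for *Acta1* at day 70.

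Enzymes that process foreign compounds and hormones were more often lower, 16 of 28 against 5 higher (2 without untreated replicate 2), with a median of -1.54. *Sult1a1*, a sulfotransferase, was at 14.6, 9.10 and 12.4 CPM at day 70 and at 243, 142, 159 and 273 CPM in untreated colon, 9.77-fold apart at the nearest samples (-4.09 ± 0.47, adjusted p = 1.79e-05). The aldehyde dehydrogenase *Aldh1a1* (-2.09 ± 0.45), and the drug efflux pump *Abcb1a* (-2.83 ± 0.48) fell. *Gsta4*, which detoxifies products of lipid peroxidation, rose from between 12.7 and 20.1 CPM to 139, 188 and 197 CPM (3.38 ± 0.60, adjusted p = 0.000386). *Cyp2b10*, a cytochrome P450, rose as well (5.15 ± 1.07), from a level near 0. In the prostaglandin and eicosanoid list 5 rose and 7 fell of 21, with 3 higher and 4 lower without untreated replicate 2. Of all genes 16.7% rose and 13.7% fell. *Ptgs2*, the inducible cyclooxygenase, was at 15.9, 47.2 and 21.7 CPM against 6.41, 5.52, 8.21 and 6.04 CPM (2.11 ± 0.70, adjusted p = 0.0268), and its call was lost without day 70 replicate 2 (log2 fold change 1.504) or untreated replicate 1, 2 or 4. *Hpgd*, which breaks prostaglandin E2 down, fell from between 133 and 263 CPM to 35.4, 39.0 and 69.9 CPM (-1.95 ± 0.34, adjusted p = 0.000405). *Alox12*, a lipoxygenase that stratified epithelia and platelets make, rose from at most 1.34 CPM to 80.5, 62.7 and 83.4 CPM (5.88 ± 0.71, adjusted p = 2.21e-05).

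Among 12 LXR target and pathway genes 3 rose and 2 fell. The list counts in this paragraph stand against 16.7% of all genes called higher and 13.7% called lower. Without day 70 replicate 1 the LXR list had 1 higher and 1 lower, and with limma on log2(TPM + 1) 0 higher and 1 lower. *Nr1h3*, which encodes LXRα, was at 5.73, 7.49 and 7.525 CPM against 26.1, 29.1, 31.4 and 26.3 CPM (-2.03 ± 0.29, adjusted p = 6.90e-05). *Abca1*, the cholesterol exporter that LXR induces, had overlapping groups (0.23 ± 0.24, adjusted p = 0.5004), whereas its relative *Abcg1* rose from between 7.38 and 13.3 CPM to between 17.3 and 26.8 CPM (1.00 ± 0.25, adjusted p = 0.00501). The call of *Abcg1* was lost with the 22-day controls and with limma on log2(TPM + 1). *Cyp27a1*, which makes 27-hydroxycholesterol, a ligand of LXR, was at 8.62, 21.9 and 22.2 CPM against 40.1, 34.7, 18.9 and 26.3 CPM (-0.77 ± 0.33, adjusted p = 0.0843). Of 8 oxysterol enzymes 1 was called, and of 20 cholesterol synthesis genes 1. Ligands and receptors of the EGFR family gave 5 higher of 12, with a median of 0.64, calls that were 2 without day 70 replicate 1 or 2, 3 without untreated replicate 1 or 2 and all lost with the 43-day controls. *Areg*, amphiregulin, was at 60.5, 47.7 and 22.0 CPM against 13.4, 4.72, 11.7 and 20.9 CPM (1.77 ± 0.60, adjusted p = 0.0282, a call lost without untreated replicate 1, 2 or 3 or day 70 replicate 1 or 2). The tight junction gene *Cldn4* was the claudin called of 10, at 339, 328 and 350 CPM against 44.5, 21.01, 45.5 and 42.7 CPM (3.14 ± 0.60, adjusted p = 0.000720). Nuclear genes of oxidative phosphorylation gave 4 lower of 18, a count of 1 without day 70 replicate 1 and 2 without day 70 replicate 2. That count was 0 with the 22-day controls and 1 with the 43-day controls. The mRNAs of the mitochondrial genome gave 2 lower of 13 with a median of -0.71, and 1 with a median of -0.44 without untreated replicate 2. With the 43-day controls 0 were called (median -0.27), and with the 22-day controls 3 (median -1.10). Their summed level was between 37454 and 44322 CPM at day 70 and between 49197 and 109257 CPM in untreated colon. Among 23 *Hox* genes tested, *Hoxa9* rose (1.52 ± 0.21) and *Hoxb13*, a gene of the most caudal gut, fell (-1.39 ± 0.33), with 4 higher (1 without day 70 replicate 1) and 1 lower in all.

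Some genes of the smallest p-values, such as *Lgals9*, were close within each group, and others, such as *Adam23* (11.5 to 24.2 CPM in untreated colon), varied more. *Lgals9*, the lectin galectin-9, was at 225, 205 and 211 CPM at day 70 and at 34.1, 36.5, 36.2 and 38.5 CPM in untreated colon (2.55 ± 0.23, adjusted p = 2.17e-06). *Zc3h12a*, a nuclease that degrades mRNAs of inflammatory cytokines, was at 77.9, 66.8 and 58.7 CPM against 11.7, 11.3, 18.9 and 14.4 CPM (2.27 ± 0.24, adjusted p = 8.48e-06). *Arl4c*, a small GTPase, rose by 2.76 ± 0.29. Among genes that fell, *Adam23*, a surface protein of the ADAM family, was at 1.31, 2.52 and 1.23 CPM against 14.7, 24.2, 17.96 and 11.5 CPM (-3.33 ± 0.38, adjusted p = 1.79e-05). *Vstm5* (-2.10 ± 0.24) and *Mab21l2* (-5.05 ± 0.60), a gene of mesenchymal cells, were also among the smallest p-values of the genes that fell. The largest falls by fold included *Inmt*, a methyltransferase, at 0.210, 0.392 and 0.465 CPM against 32.5, 39.3, 23.6 and 9.76 CPM (-6.16 ± 0.98, adjusted p = 0.000180), and *Mptx1*, a mucosal pentraxin of the colon, at 14.98, 16.6 and 45.9 CPM against 2008, 1544, 1609 and 2655 CPM (-6.24 ± 1.16, and -6.96 without day 70 replicate 3). *Mptx1* is similar to *Mptx2*, which rose from a level near 0, so reads may be split between them. *Cyp2e1* had the largest fall of the genes named (-8.03 ± 2.42, adjusted p = 0.0157), with untreated replicate 4 at 0.149 CPM and day 70 replicate 2 at 0.131 CPM, and its call was lost without day 70 replicate 1 or 3.

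The same day 70 samples were also set against the 3 samples of day 22, after the first DSS cycle, in the same fit. The day 22 samples share cage A, so day, age at collection and cage cannot be told apart there either. There 2574 genes were higher at day 70 (15.1%) and 2732 lower (16%), together 31.1% of the genes tested. The 2 comparisons share the day 70 samples, so their values are given side by side. Of the Wnt and stem cell genes, *Axin2* and *Lgr5* overlapped the untreated samples or lay below them at day 22. *Axin2* was at 23.2, 16.97 and 15.9 CPM and *Lgr5* at 6.13, 3.62 and 3.67 CPM, and both rose from day 22 to day 70 (adjusted p = 0.00147 and 0.00268). *Mmp7*, by contrast, was at 9.4, 20.5 and 39.1 CPM at day 22, above all untreated samples. Neutrophil genes were already high at day 22, where *S100a8* was at 9.24, 139 and 187 CPM (adjusted p = 0.836 between day 22 and day 70). At day 43 *S100a8* reached 1472, 6312 and 1251 CPM. *Ms4a1* was at 57.8, 100 and 76.3 CPM at day 22, above all untreated samples. All 14 B cell genes were lower at day 70 than at day 22, against 16% of all genes. This was not particular to B cells. Also lower were 15 of 16 T cell, 9 of 10 MHC class II and 15 of 20 interferon-stimulated genes, with 0 higher. Macrophage genes gave 12 lower and 2 higher of 18, and plasma cell genes 4 lower and 1 higher of 12. *Slc26a3* was at 490, 106 and 96.1 CPM at day 22 and at 40.4, 34.2 and 35.9 CPM at day 43. *Krt5* stayed at or below 1.17 CPM at day 22 and was at 43.0, 303 and 110 CPM at day 43, and 22 of 24 squamous genes were called higher at day 70 than at day 22. Day 43 replicate 1, whose RNA integrity number was 2.6, was the highest day 43 sample for *Mmp7* (2504 CPM), *Lgr5* (102 CPM) and *Lyz1* (5192 CPM), and no test was made with day 43.

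The day 70 effect of the standard diet was also compared with that of the GW3965 diet, as the difference of both log2 changes. The untreated GW3965 samples share cage F and those of day 70 came from cages J, K and L, so diet and cage cannot be told apart. Untreated replicate 4 of the GW3965 diet carries a diet label of standard diet. It was placed by its title, and this comparison was not run without it. By edgeR's quasi-likelihood test 1 gene of 17063 was called (0.00586%), *Enpp2*, which encodes the secreted enzyme autotaxin, and 2296 genes (13.5%) had an unadjusted p below 0.05. DESeq2 called 287, of which 13 had the higher and 274 the lower effect on the standard diet. *Enpp2* was at 13.04, 9.23 and 10.5 CPM at day 70 of the standard diet and between 42.2 and 52.6 CPM in untreated colon (-2.14 ± 0.25 SE, adjusted p = 1.79e-05).

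**Figure D5:**
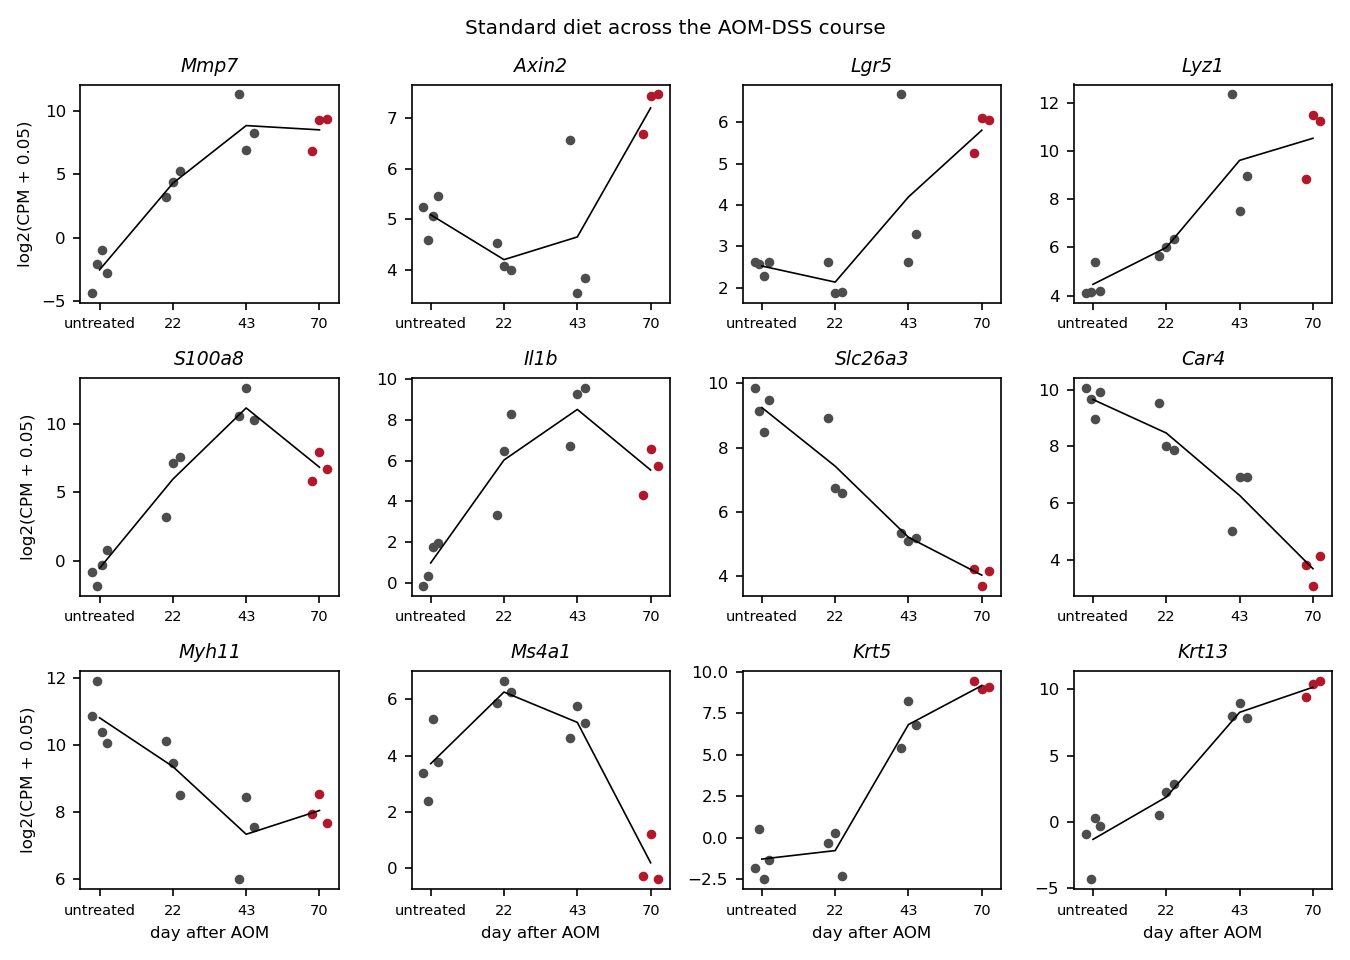
Levels of 12 genes as log2(CPM + 0.05) in each standard diet sample, untreated (4 samples) and at days 22, 43 and 70 after AOM (3 samples each, day 70 in red), with a line through the group means of log values. *S100a8* and *Il1b* are highest at day 43, *Slc26a3* and *Car4* fall to their lowest at day 70, and *Ms4a1* is highest at day 22 and lowest at day 70.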

How the data were processed

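RNA-seq of colon was analysed for 3 day 70 and 4 untreated samples of the standard diet, fitted with the other 19 samples of the 26. The values the authors deposited are kallisto's estimated counts (expected counts) per transcript of the GRCm38 cDNA set, made from paired reads and not normalized, beside the TPM that kallisto derives from them. The kallisto version is not given in the sources used here. Of 119414 transcripts, 116728 (97.8%) were matched by identifier to GENCODE vM21, and 0.785% to 0.932% of the counts in these 7 samples fell on unmatched ones. Counts were summed over 35975 genes and rounded.

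The tests were run with edgeR (4.0.16), DESeq2 (1.42.0) and limma (3.58.1) under R 4.3.3, and tables and plots were made with Python 3.11.15 (matplotlib 3.10.9, numpy 2.4.6 and pandas 2.3.3). The filter on low counts was filterByExpr over 8 groups of diet and day, which left 17063 genes, libraries were scaled by TMM, and contrasts were tested with edgeR's quasi-likelihood test in 1 fit of the 8 groups with Benjamini–Hochberg adjustment over all genes tested (threshold 0.05). The study's model crosses diet and time with the percentage of ribosomal RNA. Here a percentage was an alternative only, as an additive term, with the share that 88 ribosomal protein genes took of each library as the percentage (4.57 to 6.66% in the 7 samples). The other contrasts were day 70 against day 22, and the day 70 effect of the standard diet minus that of the GW3965 diet. The SE of a log2 fold change was computed as its absolute value divided by the square root of the test's F statistic. It is no measure of spread separate from the test.

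The samples compared, the gene lists and the rule for named genes were chosen with earlier results of these data known, so lists are described by counts and medians beside those of all genes, and nothing is drawn from them as independent support. Named genes were, per direction, the 12 protein-coding genes of the largest fold and the 6 of the smallest p, among called genes of at least 10 CPM without overlap of the samples (immunoglobulin and T cell receptor segments left out), up to 4 called members of each list per direction, and members that define each list's cell type. Other list members appear as examples chosen after their values were seen. A gene at 0 in every untreated library was given as a lower bound against 3 counts over the group (0.0348 CPM), which covers counting error only.

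On counts simulated for 17063 genes with 200 changed by 2 on the log2 scale, the test of day 70 against untreated recovered 158 (79.0%) with 8 others called. The data had 5174 genes called, so the simulation does not show how scaling and test behave when so many genes change. Replicate numbers are shared between groups in the titles. The deviations from the group mean of samples that share a number correlated between -0.149 and 0.174, so the samples were not treated as paired. No samples held identical values. Alternatives changed the test, normalization, filter, controls, covariate, replicate block and samples. Promoters came from RefSeq for GRCm38.p6 and no protein sequences were used. Cage and collection day were taken from the labels. Some genes of the lists are counted but not reported here by name.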

Additional observations from a re-analysis of the deposited data

Results flagged for a closer look

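In *Enpp2*, which encodes autotaxin, a secreted enzyme that makes lysophosphatidic acid, the day 70 effect differed between the diets. It was at 13.04, 9.23 and 10.5 CPM at day 70 of the standard diet against 42.2, 52.6, 50.7 and 46.7 CPM in untreated colon, and at 80.0, 46.2 and 33.4 CPM at day 70 of the GW3965 diet against 49.1, 60.9, 52.6 and 51.8 CPM in its untreated colon. The standard diet's log2 change minus that of the GW3965 diet was -2.13 (SE 0.33, adjusted p = 0.0301 with edgeR's quasi-likelihood test). This was the gene called of 17063 (0.00586%), while 2296 genes (13.5%) had an unadjusted p below 0.05. The adjusted p was 0.0771 with the ribosomal percentage as a term and reached 0.255 without day 70 replicate 3. Untreated replicate 4 of the GW3965 diet (51.8 CPM) carries a standard diet label, and the difference was not tested without it.

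Within the 4 untreated samples, 1 sample stood far from the other 3 (Dixon's criterion) for 19 of the 202 named genes. For normally distributed values chance flags about 1 gene in 20, and over all 17063 genes 6.85% were so placed. Levels near 0 need not follow that rate. A gene detected in 1 untreated sample alone is flagged whatever its level. That holds for *Defa24*, *Defa17*, *Stfa2l1*, *Csf3*, *Il6*, *Il17a* and *Mb* (Dixon ratio 1), so their flags do not show an unusual sample. Untreated replicate 3 was high for the B cell genes *Cr2* (17.4 CPM) and *Pax5* (14.1 CPM), for the class II genes *H2-Oa* (9.87 CPM), *H2-Ob* (27.9 CPM) and *H2-DMb2* (29.1 CPM), and for the summed B cell (322 CPM) and T cell (70.5 CPM) lists. It was also high, close to the limit of detection, for *Il6* (0.213 CPM), *Il17a* (0.0426 CPM), *Csf3* (0.0426 CPM) and *Mb* (0.0851 CPM), high for *Ces1g* (3.70 CPM) and low for *Il23a* (0.0426 CPM). Untreated replicate 2 was high for the endothelial genes *Tek* (24.9 CPM) and *Lyve1* (89.4 CPM) and for *Defa24* (0.189 CPM) and *Defa17* (0.0472 CPM), and low for *Cldn4* (21.01 CPM). Untreated replicate 1 was high for *Stfa2l1* (0.0471 CPM) and untreated replicate 4 for *Cxcl9* (6.98 CPM).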

How the results depend on the processing

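Of the 5174 genes called at day 70 against untreated colon, the count lay between 4164 (limma on log2(TPM + 1)) and 6254 (without the sample of RNA integrity number 2.6) under the alternatives other than the choice of controls and single samples left out, with 5752 by DESeq2 and 5672 with the ribosomal percentage as a term. Leaving out 1 of the 7 samples gave between 3827 and 4937. With the 43-day controls alone it was 2083, in a fit with fewer samples, and with the 22-day controls alone 4350. Of the 202 named genes 197 were called, 134 and 162 with these controls and between 160 and 184 with 1 sample left out, and no called gene changed direction under any alternative run. Members of the lists called, 352, were 218 with the 43-day controls and between 296 and 337 with 1 sample left out. The median of the tuft cell list turned from -0.63 to 0.15 with limma on log2(TPM + 1). That of the plasma cell list, -0.81, was 1.09 with the 22-day controls and -1.66 with the 43-day controls. With 1 sample left out it lay between -1.45 and 0.33 (without untreated replicate 3). The cause was not tested. The genes whose day 70 effect differed between the diets, 1 in number, were 287 by DESeq2, 0 with the ribosomal percentage as a term and between 0 and 1 with 1 sample left out (0 without untreated replicate 2, 3 or 4 or any day 70 sample), with between 1646 and 2603 genes at an unadjusted p below 0.05 in edgeR's fits. Against day 22, 5306 genes were called, and between 3309 (without day 22 replicate 2) and 4444 with 1 sample left out, with 3385 without day 70 replicate 1. The replicate block, whose numbers were not shown to pair the samples, gave 4562 genes called at day 70 against untreated colon, 1 between the diets, 5124 against day 22 and 326 list members, and 19 of the named genes lost their call. The smallest levels, below about 0.05 CPM, rest on 1 count.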

Other observations

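Genes of the circadian clock, which no comparison above describes and which were chosen after their values were seen, lay apart in the 2 groups, and are given as values without a test. Of 16 clock genes, 11 were lower at day 70 without overlap of the samples, 3 were higher and 2 overlapped, against 19.3% and 23.9% of all genes without overlap. *Dbp*, an output factor of the clock, was at 13.4, 9.75 and 11.8 CPM at day 70 and at 133, 173, 78.2 and 87.1 CPM in untreated colon. Its relatives *Hlf* and *Tef* had log2 fold changes of -3.45 and -1.59. The repressors *Per1*, *Per2* and *Per3* had log2 fold changes of -1.17, -1.07 and -0.97, and *Nfil3*, which acts against *Dbp* at the same sites, one of 2.40. *Clock*, a core activator, had 0.03. The hour at which the mice were killed is not given in the sources used here.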
